A study of Mus musculus with 4 samples.

Results

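The genes described here are 34 genes of endocytic uptake and lysosomal digestion, chosen by name from a list of visceral endoderm uptake receptors and lysosomal proteins. All 34 have probes among the 19057 named genes of the array, with 77 of its 45281 probes. For 32 of the 34 at least 1 probe was above background on 2 or more arrays, and these 32 are among the 10603 genes tested. Gla, the gene of alpha-galactosidase A, and Scpep1, a serine carboxypeptidase gene, have 1 probe each that was not above background on any array, and nothing is said of their change.

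Total RNA of whole yolk sacs of C57BL/6 mice at embryonic day 9.5 was measured on Illumina bead arrays, on which the brightness of beads carrying a short probe reports the amount of a transcript. In 2 samples, labelled Flk1Cre;ETV2 CKO, Etv2 had been deleted with Cre and loxP in FLK1+ cells, and 2 samples were labelled control. Etv2 encodes an ETS transcription factor that endothelial and blood cells need in order to form, and FLK1 is the protein of Kdr, a receptor of the vascular lineage. The labels do not say whether the controls carried the Cre or the loxP sites, nor the sex, litter or pooling of the embryos, and p-values therefore speak only of the scatter among these 4 samples, part or all of which could be technical. The comparison asks which of these transcripts differ in amount between yolk sacs with and without the deletion.

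The labels were checked on Etv2 itself. Its probe read 206 and 227 raw intensity units in CKO-labelled yolk sacs, against 157 and 177 in control yolk sacs, a normalized log2 difference of 0.46 ± 0.10 (SE, n = 2 a group, limma adjusted p = 0.0199) that runs against the label. Whether the probe lies in the deleted part is not known here, so every direction below rests on the labels alone. Xist exceeded its control level by 1.05 ± 0.10 and Eif2s3y, a Y-linked gene, fell by 0.73 ± 0.11. Both were above background on all 4 arrays. The Y-linked genes Kdm5d and Uty stood at -0.33 and -0.34 and did not pass (limma adjusted p = 0.0916 and 0.143). Sex make-up and group therefore cannot be told apart. Gla and Lamp2 are the X-linked genes among the 34. Between 17934 and 18798 probes were above background per array.

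The visceral endoderm of the yolk sac takes up maternal proteins and lipids by endocytosis and breaks them down in lysosomes, which feeds the embryo before the placenta works. Cubilin and megalin, large receptors of the apical membrane, bind many ligands there. Amnionless holds cubilin at the surface and Dab2 links megalin to the clathrin coat. Cargo then passes to lysosomes, where acid proteases, glycosidases and lipid hydrolases cut it, small activator proteins present lipids to the enzymes, and the Niemann-Pick proteins hand cholesterol on. The transcription factor TFEB drives many lysosomal genes through a CACGTG core within a longer palindrome known as the CLEAR element, TCACGTGA with a G before it and a C after it.

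That core was looked for in the promoters of the 34 genes, since it is a sequence feature by which lysosomal genes may be switched together. The promoters are from RefSeq (build GRCm38.p6) and run from 250 bases before to 50 bases after each annotated start, and 30 of the 34 genes matched by symbol. The 4 not matched were Asah1, Ctsb, Ctsh and Npc1. The full element was in 0 of 30 genes and in 0.757% of the 8591 tested genes with a promoter. TCACGTGA alone was in 4 of 30 (13.3%) against 2.22% of tested genes. CACGTG, which every TCACGTGA also holds, was in 8 of 30 (26.7%) against 11.8% of tested genes and 7.15% of all 32851 promoters in the table. Each of the 3 reads the same on both strands. Printed here is the stretch before the start around the core for Ctsl, whose signal is described further on as lower, and for the tested genes with the longer TCACGTGA or the most copies, with the motif in capitals.
Ctsl (chr13:64370736-64370770, minus strand, 236 bases before the start): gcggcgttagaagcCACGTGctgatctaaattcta
Ctsa (chr2:164833745-164833772, plus strand, 13 bases before the start): acaatgagcaaactgTCACGTGAtgcag
Ctsd (chr7:142387904-142387941, minus strand, 99 bases before the start): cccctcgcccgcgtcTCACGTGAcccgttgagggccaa
Mcoln1 (chr8:3500433-3500495, plus strand, 71 and 46 bases before the start): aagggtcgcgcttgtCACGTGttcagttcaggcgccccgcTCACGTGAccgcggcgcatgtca
Lamp1 (chr8:13159085-13159160, plus strand, 61 to 15 bases before the start): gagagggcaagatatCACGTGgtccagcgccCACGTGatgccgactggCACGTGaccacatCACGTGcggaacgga
Lamp1 carried 4 copies, the most of the 8 genes, and Ctsa, Ctsd, Gla and Mcoln1 carried 2 each, of which the stretches above hold only 1 for Ctsa and for Ctsd. Amn, Ctsl and Glb1 carried 1. A match describes letters in a window and does not show a bound site.

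Most of the 32 tested genes differed little between the groups. Only 3 passed the test, a limma adjusted p under 0.05 over all 10603 genes, and all 3 encode hydrolases: Lipa was higher, and Neu1 and Ctsl were lower, on the CKO-labelled arrays. That is 9.38% of the 32 where 25.2% of all tested genes were called. Hydrolase genes make up 16 of the 32. By direction, 1 of 32 was higher against 14.4% of all genes, and 2 of 32 were lower against 10.8%. The median log2 difference, always CKO-labelled minus control, was 0.01 over the 32 genes and 0.02 over all tested genes, and 16 of the 32 lay above 0. Differences within 0.25 of 0 made up 68.8% of the 32 and 58.0% of all genes.

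The call depended on how the spread was modelled. At the median standard error of these genes, 0.10, a difference of 0.35 (1.27-fold) was needed to pass. An unadjusted p under 0.05 was reached by 12 of the 32 (37.5%) and by 39.0% of all genes. With the variance allowed to follow the mean signal, 5 were higher and 10 lower, 15 of 32 where that fit called 34.6% of all genes, and leaving out 1 array left 0 or 1 call where 12.2% to 15.9% of all genes were called. The authors' values called 13 of 32 (29.0% of all genes), no background correction 12 (33.8%), an offset of 50 called 10 (32.0%) and a detection p under 0.01 on all 4 arrays 7 of 31 (34.1%). The mean of a gene's probes called 4 (25.1%), adjustment over all probes 3 (21.7%), no filter 3 of 34 (11.1%) and median scaling 2 (20.6%). Median scaling also moved the share of calls over all genes that were higher to 70.3%, from 57.2%. A gene below that is not past the test is not shown to be unchanged. The 95% interval of the difference stayed within 1.5-fold either way for 26 of the 32 genes and within 2-fold for 31, Lipa being the exception to the second limit.

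**Figure D1:**
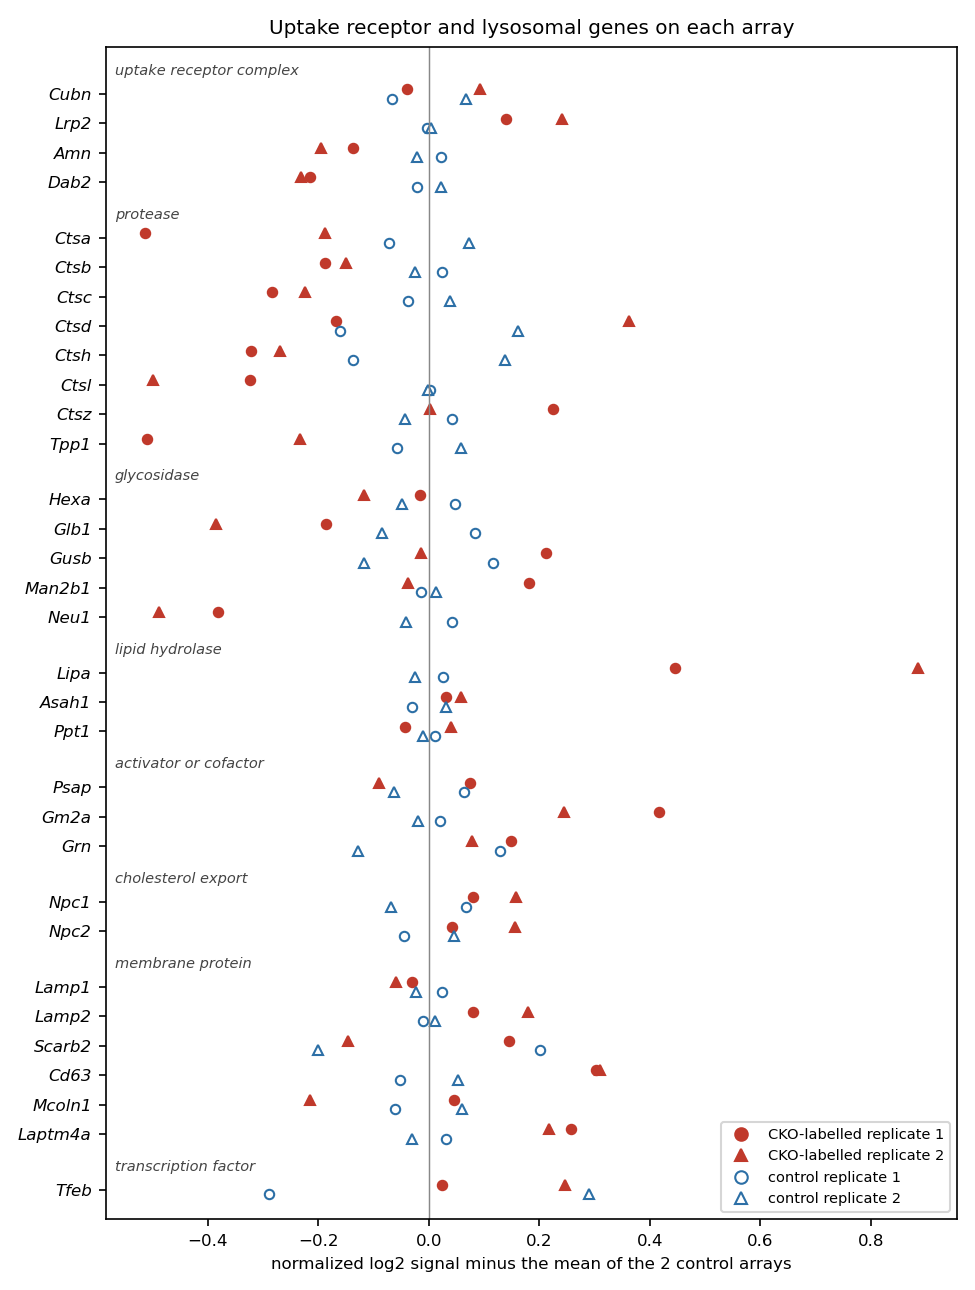
Normalized log2 signal of each of the 32 tested genes on each array, minus the mean of the 2 control arrays (x axis), with the genes grouped by role from top to bottom. Filled red marks are CKO-labelled arrays and open blue marks control arrays, replicate 1 as circles and replicate 2 as triangles. Lipa lies farthest to the right, at 10.58 and 11.02 against 10.16 and 10.11 before the control mean is subtracted, while Ctsl and Neu1 lie to the left.

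None of the 4 genes of the uptake receptor complex passed the test, and they did not lean one way. Cubn, the cubilin gene, had normalized log2 signals of 12.23 and 12.37 in CKO-labelled yolk sacs, against 12.21 and 12.34 in control yolk sacs. The arrays of the groups interleaved, and the difference was 0.03 ± 0.10 (SE, 95% interval -0.22 to 0.28, limma adjusted p = 0.883). Lrp2, the megalin gene, stood at 12.16 and 12.26 in CKO-labelled yolk sacs, against 12.02 and 12.03 in control yolk sacs. Both CKO-labelled arrays were above both controls, by 0.19 ± 0.09 (interval -0.04 to 0.42, limma adjusted p = 0.185).

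Amn, the amnionless gene, stood at 13.47 and 13.41 in CKO-labelled yolk sacs, against 13.63 and 13.58 in control yolk sacs. Its groups did not overlap either, and the difference was -0.17 ± 0.09 (interval -0.39 to 0.05, limma adjusted p = 0.231). Dab2, the adaptor gene, gave 13.40 and 13.39 in CKO-labelled yolk sacs, against 13.60 and 13.64 in control yolk sacs by its brightest probe. That is a difference of -0.22 ± 0.09 (interval -0.44 to -0.01, limma adjusted p = 0.12), and its other probes past the filter stood at -0.14 and -0.02. Amnionless and cubilin work as 1 complex, and whether their genes differed from each other in their change was not tested. For all 4 genes together, 3 of 4 had groups that did not overlap, and the groups did not overlap for 65.4% of all tested genes either. With the variance following the mean signal, Lrp2 was called higher and Amn and Dab2 lower. The authors' values gave the same calls for these genes, and with no background correction Dab2 alone of the 4 was called, also lower.

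Of the 18 hydrolase genes, 16 were tested, 2 were lower, 1 was higher and 13 did not pass. That is 12.5% lower and 6.25% higher, where all tested genes had 10.8% and 14.4%. Their median difference was -0.12, with a range from -0.44 to 0.67, beside a median of -0.07 and a range from -0.22 to 0.19 for the 4 receptor complex genes. The receptor range lies wholly inside the hydrolase range. Over 14 alternative settings the receptor median stayed between -0.09 and -0.05 and the hydrolase median between -0.18 and -0.10. In bulk RNA, fewer cells of a type and less RNA per cell cannot be told apart, here and in all that follows.

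The gene with the widest difference was Lipa, which encodes the acid lipase that frees cholesterol and fatty acids from lipoprotein esters in the lysosome. Its brighter probe read 10.58 and 11.02 in CKO-labelled yolk sacs, against 10.16 and 10.11 in control yolk sacs. Both CKO-labelled arrays were above both controls, although they lay 0.44 apart from each other. Lipa was higher by 0.67 ± 0.15 (1.59-fold, SE, n = 2 a group, 95% interval 0.30 to 1.03, limma adjusted p = 0.0236). The second Lipa probe gave 0.52 and passed the test over all probes as well. The call was lost without CKO replicate 2 (0.45, adjusted p = 0.0704), without control replicate 1 (0.69, adjusted p = 0.053) and without control replicate 2 (0.64, adjusted p = 0.0653). It was kept without CKO replicate 1, at 0.89 (limma throughout).

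Asah1, the acid ceramidase gene, and Ppt1, the palmitoyl-protein thioesterase gene, are the other lipid hydrolases. Asah1 was at 12.13 and 12.16 in CKO-labelled yolk sacs, against 12.07 and 12.13 in control yolk sacs, a difference of 0.04 ± 0.09, while a dimmer Asah1 probe stood at -0.28. Ppt1 was at 7.74 and 7.82 in CKO-labelled yolk sacs, against 7.79 and 7.77 in control yolk sacs, a difference of -0.00 ± 0.09. Neither passed, so Lipa was the single called gene of the 3 lipid hydrolases.

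Among the glycosidases, Neu1 was lower. It encodes the lysosomal sialidase, which works in a complex with cathepsin A (Ctsa) and beta-galactosidase (Glb1). Its signal was 12.15 and 12.04 in CKO-labelled yolk sacs, against 12.57 and 12.49 in control yolk sacs. The groups were well apart, and the difference was -0.44 ± 0.10 (1.35-fold, 95% interval -0.67 to -0.20, limma adjusted p = 0.0224). Leaving out any 1 array ended the call while the difference stayed between -0.49 and -0.38 (limma adjusted p from 0.0511 to 0.105).

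The partners of Neu1 had negative differences that did not pass. Glb1 stood at 10.50 and 10.31 in CKO-labelled yolk sacs, against 10.78 and 10.61 in control yolk sacs, a difference of -0.29 ± 0.12 (limma adjusted p = 0.117). A second Glb1 probe, near background, stood at -0.30, with raw intensities of 135 and 151 in CKO-labelled yolk sacs, against 134 and 146 in control yolk sacs. Ctsa stood at 7.85 and 8.18 in CKO-labelled yolk sacs, against 8.29 and 8.44 in control yolk sacs, a difference of -0.35 ± 0.13 (limma adjusted p = 0.102). All 5 Ctsa probes were negative after normalization, from -0.35 to -0.12. Raw intensities of the brightest overlapped, at 319 and 423 in CKO-labelled yolk sacs, against 370 and 441 in control yolk sacs, and the dimmer 4 were mostly not lower in raw signal. The Ctsa difference was -0.20 in the authors' table, -0.19 as the mean of its probes and -0.19 without CKO replicate 1. Over all 14 alternatives it lay between -0.51 and -0.19, and 4 of them called it. By normalized signal of the brightest probe, each of the 3 genes of this complex had both CKO-labelled arrays below both controls, which 29.7% of all tested genes had.

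The remaining glycosidases gave no uniform picture. Hexa, a beta-hexosaminidase subunit gene, was at -0.07 and Man2b1, the alpha-mannosidase gene, at 0.07. Gusb, the beta-glucuronidase gene, was at 0.10 ± 0.13 by its brightest probe, yet 3 dimmer Gusb probes were at -0.09, -0.37 and -0.54, of which the last 2 passed the test over all probes. The raw intensities of those 2 lay between 144 and 192 in CKO-labelled yolk sacs, against 149 and 193 in control yolk sacs, and the direction of Gusb is therefore uncertain.

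Of the 8 protease genes tested, 1 was lower and 7 did not pass, where 10.8% of all genes were lower. Their median was -0.28, and 6 of 8 had both CKO-labelled arrays below both controls, where 29.7% of all genes did. Across 14 alternatives the protease median stayed between -0.35 and -0.19. Ctsl, which encodes the cysteine protease cathepsin L, had normalized signals of 6.69 and 6.52 in CKO-labelled yolk sacs, against 7.02 and 7.01 in control yolk sacs. The difference was -0.41 ± 0.10 (1.33-fold, 95% interval -0.66 to -0.17, limma adjusted p = 0.0307). Its raw intensities overlapped, at 196 and 204 in CKO-labelled yolk sacs, against 203 and 221 in control yolk sacs, and the medians over all probes of those arrays were 118 and 125 for the CKO-labelled and 109 and 114 for the control arrays. With no background correction the Ctsl difference was -0.22, and in the authors' table it was -0.13 and did not pass (limma adjusted p = 0.0645). Leaving out any 1 array also ended the call.

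The other cysteine cathepsins were bright. Ctsc, whose product activates granule proteases, stood at 12.14 and 12.20 in CKO-labelled yolk sacs, against 12.39 and 12.46 in control yolk sacs, a difference of -0.25 ± 0.09 (limma adjusted p = 0.0932), and its 3 probes lay between -0.34 and -0.23. Ctsh, an aminopeptidase gene, stood at 12.82 and 12.87 in CKO-labelled yolk sacs, against 13.00 and 13.28 in control yolk sacs, a difference of -0.30 ± 0.12 (limma adjusted p = 0.117). Its second probe, at -0.43, passed the test over all probes. Ctsb, the cathepsin B gene, was at -0.17 ± 0.09 and Ctsz, a carboxypeptidase gene, at 0.11 ± 0.11, and the arrays of the groups overlapped for Ctsz but not for Ctsb.

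Tpp1, the gene of the lysosomal tripeptidyl peptidase, stood at 8.65 and 8.93 in CKO-labelled yolk sacs, against 9.10 and 9.22 in control yolk sacs. The groups did not overlap and the difference was -0.37 ± 0.12 (limma adjusted p = 0.0683), which 6 of 14 alternatives called. Ctsd, the gene of the aspartic protease cathepsin D, was dim and had overlapping groups, at 6.33 and 6.86 in CKO-labelled yolk sacs, against 6.34 and 6.66 in control yolk sacs (0.10 ± 0.19, limma adjusted p = 0.754).

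**Figure D2:**
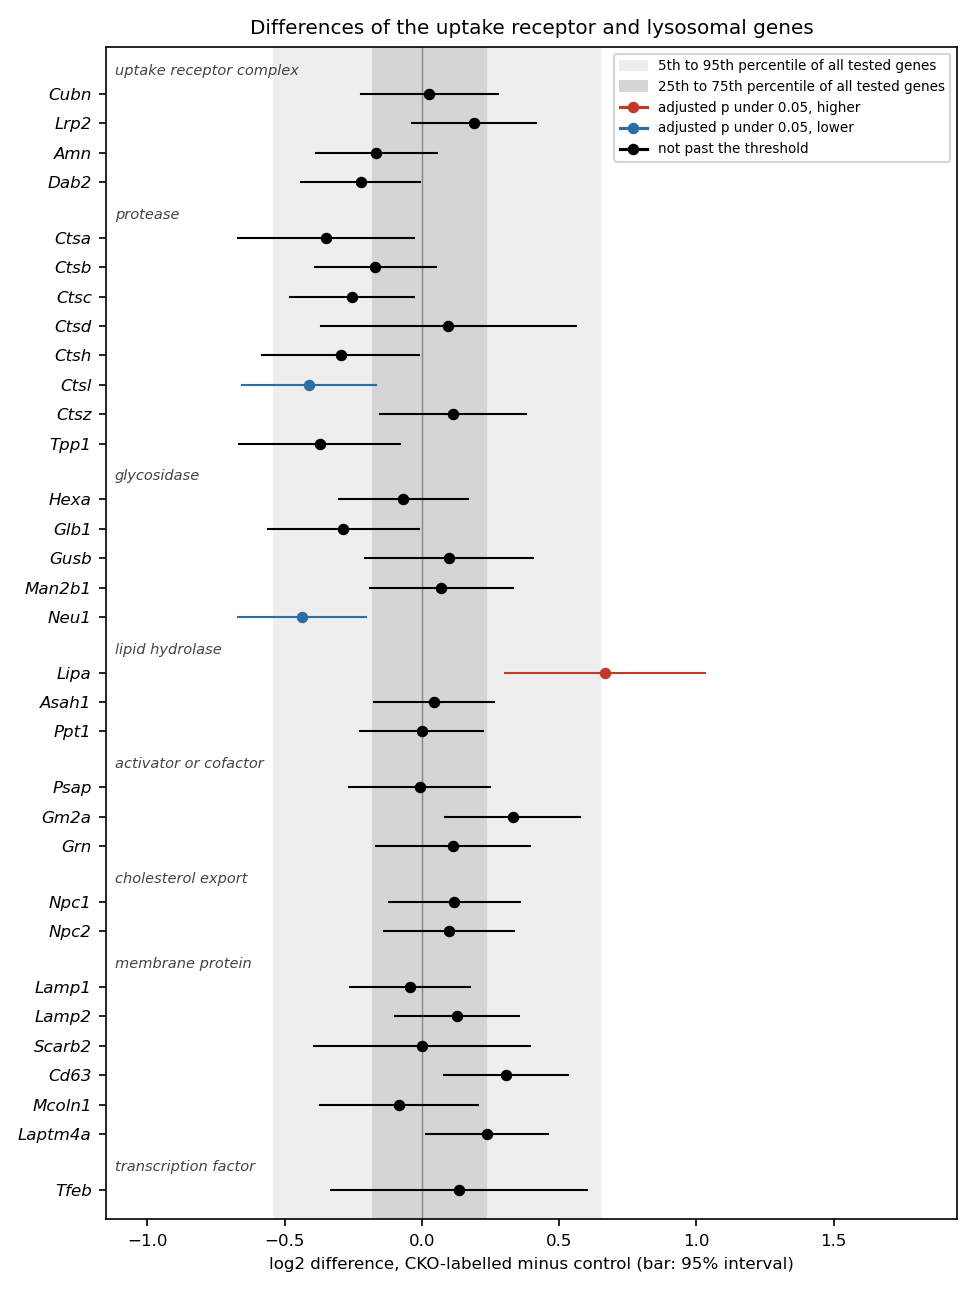
Log2 difference of each tested gene, CKO-labelled minus control (x axis), with its 95% interval from the limma fit, grouped by role from top to bottom; grey bands mark the percentiles of all 10603 tested genes. Lipa (red) at 0.67 and Neu1 and Ctsl (blue) at -0.44 and -0.41 passed the test, and the protease points lie mostly left of 0.

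The 12 lysosomal genes that encode no hydrolase lay mostly on the other side, and none passed the test. Their median was 0.12, between 0.08 and 0.16 over 14 alternatives, and 8 of the 12 were above 0. For 5 of them both CKO-labelled arrays were above both controls, and for 1, Lamp1, below, where 35.7% and 29.7% of all genes were. Gm2a, whose product presents the ganglioside GM2 to hexosaminidase, was at 10.97 and 10.80 in CKO-labelled yolk sacs, against 10.57 and 10.53 in control yolk sacs. The groups were apart by 0.33 ± 0.10 (limma adjusted p = 0.0577), and 5 of 14 alternatives called it. Psap, the precursor gene of the saposins, was at -0.01 ± 0.11 and Grn, the progranulin gene, at 0.11 ± 0.12.

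Cd63, a tetraspanin gene of late endosomes and lysosomes, stood at 13.90 and 13.90 in CKO-labelled yolk sacs, against 13.54 and 13.64 in control yolk sacs. The difference was 0.31 ± 0.09 (limma adjusted p = 0.0572), and its other probes stood at 0.41, past the test over all probes, and 0.22. Laptm4a, a transmembrane protein gene of late endosomes and lysosomes, was at 11.49 and 11.45 in CKO-labelled yolk sacs, against 11.26 and 11.20 in control yolk sacs, a difference of 0.24 ± 0.09 (limma adjusted p = 0.107). Lamp1 and Lamp2 encode the most abundant proteins of the lysosomal membrane. Lamp1 was at -0.04 ± 0.09 (interval -0.26 to 0.17), while the 6 Lamp2 probes past the filter were all positive, from 0.13 for the brightest to 0.33, and none of them passed.

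Npc1 and Npc2, the Niemann-Pick genes of cholesterol export, were at 0.12 ± 0.10 and 0.10 ± 0.10 and did not pass. Scarb2, which encodes the sorting receptor of glucocerebrosidase, was at -0.00 ± 0.16 and Mcoln1, a lysosomal calcium channel gene, at -0.08 ± 0.12. Tfeb itself was near background, above it on both CKO-labelled arrays and 1 control array. Its signals of 5.30 and 5.53 in CKO-labelled yolk sacs, against 4.99 and 5.57 in control yolk sacs overlapped (0.14 ± 0.19, limma adjusted p = 0.65), and its control arrays lay 0.58 apart, the widest gap within a group among the 32 genes.

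Of the 7 tested genes whose promoters hold CACGTG, 6 had differences below 0, with a median of -0.17 and a range from -0.41 for Ctsl to 0.10 for Ctsd. Of the 21 tested genes without it, 8 were below 0, with a median of 0.10 and a range from -0.44 for Neu1 to 0.67 for Lipa. Over all tested genes, 5001 of 10603 were below 0. Ctsa, Ctsd, Ctsl and Glb1 of the set with CACGTG are hydrolase genes, and motif and role were not separated. Asah1, Ctsb, Ctsh and Npc1 had no promoter and are in neither set. The difference between the sets with and without CACGTG was not tested.

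Different probes of 1 gene gave a second reading. Of the 77 probes, 61 passed the filter on dim probes. Of these, 3 were higher, 5 lower and 53 not past the test over all probes, so that 13.1% were called where 20.9% of all 18817 tested probes were. For 10 of the 15 genes with several such probes all differences had the same sign, and the 5 others were Asah1, Gusb, Npc1, Psap and Scarb2. Both Lipa probes passed, while Neu1 and Ctsl have 1 probe each and so no second reading.

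**Figure D3:**
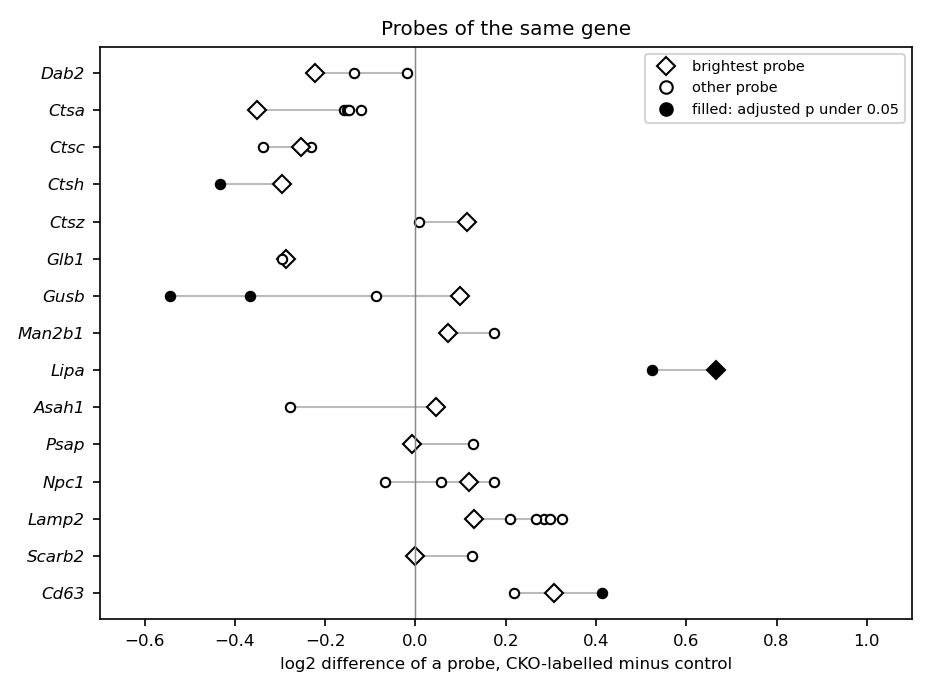
Log2 difference of each probe past the filter, CKO-labelled minus control (x axis), for the 15 genes with more than 1 such probe (y axis); diamonds mark the brightest probe and filled marks an adjusted p under 0.05 over all probes. The Gusb probes spread from -0.54 to 0.10 across 0, and both Lipa probes lie right of 0.5.

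Other genes of the same pathway, in lists drawn up by function, showed 10 of 104 tested genes lower (9.62%) and 11 higher (10.6%), where all genes had 10.8% and 14.4%, with a median of -0.02. Of 20 further lysosomal enzymes, nearly all hydrolases, 4 were lower and 4 higher, with a median of 0.06. One of the higher, Hgsnat at 0.39, encodes an acetyltransferase and no hydrolase. One of the lower, Galc, was above background on 1 CKO-labelled and 2 control arrays. Sgsh, the heparan sulfamidase gene, fell by 0.91 ± 0.14 by its brighter probe, with the other at -0.01, and Dpp7, a dipeptidyl peptidase gene, fell by 0.55 ± 0.09. Ctsf, the cathepsin F gene, rose by 0.85 ± 0.17 and was above background on 2 CKO-labelled arrays and 1 control array, and Arsb, the arylsulfatase B gene, rose by 0.62 ± 0.17 with its second probe at -0.22 (limma adjusted p between 0.00626 and 0.042 for these 4). Of 14 further lysosomal membrane proteins 0 passed by limma, 1 had an unadjusted p under 0.05, and the alternatives called up to 3 lower and 1 higher.

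The proton pump that acidifies the lysosome had 1 of 14 subunit genes lower (7.14%), where 10.8% of all genes were. That gene was Atp6v1c1 at -0.33 ± 0.09, and the median of the 14 was -0.12. Atp6v1c1 was called by 6 of 14 alternatives, and between 0 and 5 subunit genes were lower over them. In the endocytosis machinery 3 of 20 rose (15%), where 14.4% of all genes were higher, and 17 did not pass. Lrpap1, which encodes the chaperone that escorts megalin and its relatives through the endoplasmic reticulum, rose by 0.56 ± 0.09 (limma adjusted p = 0.00781), and all 14 alternatives called it. Its raw intensities were 11907 and 12507 in CKO-labelled yolk sacs, against 7551 and 8307 in control yolk sacs. Ap2b1, a subunit gene of the clathrin adaptor AP-2, rose by 0.57 ± 0.10 by the brightest of 4 probes, the lowest of which stood at 0.18. Ocrl, a phosphoinositide phosphatase gene, rose by 0.45 ± 0.11, and it is X-linked, so sex make-up and group cannot be told apart for it. Lrpap1 thus passed the test where the receptor gene Lrp2 did not, at 0.19, and the difference between them was not tested.

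Of 12 other uptake receptors, 4 were lower (33.3%) and 3 higher (25%), where all genes had 10.8% and 14.4%. The 4 lower include Lrp8, which was above background on 0 CKO-labelled and 2 control arrays and so was tested only through the controls. Tfrc, the transferrin receptor gene, fell by 1.71 ± 0.09, and the same result is counted again among the erythroid markers below. Stab2, a scavenger receptor gene, fell by 0.63 ± 0.13, while Vldlr and Lrp1, LDL receptor family genes like Lrp2, rose by 0.55 ± 0.13 and 0.54 ± 0.14. Over the alternatives Vldlr lay between 0.17 and 0.70 with 11 of 14 calling it, and Lrp1 between 0.14 and 0.73 with 9 of 14. Fcgrt, the gene of the receptor that carries antibodies across epithelia, fell by 0.42 ± 0.11. Of 12 genes that sort new hydrolases to the lysosome, by mannose 6-phosphate or without it, Sort1 rose by 0.51 ± 0.09, and 11 did not pass. One of the 4 Sort1 probes stood at -0.12. Sort1, which does not need mannose 6-phosphate, is also counted among the 3 higher uptake receptors. Among 14 relatives of TFEB and genes of mTORC1 at the lysosome, the Rag GTPase gene Rragd fell by 0.94 ± 0.11 and Tfec rose by 0.55 ± 0.13. Over the alternatives Rragd lay between -1.02 and -0.47 and Tfec between 0.09 and 0.72. Tfec was near background, with raw intensities of 145 and 173 in CKO-labelled yolk sacs, against 123 and 129 in control yolk sacs. The 9 placental cathepsin genes, copies related to Ctsl, were not above background on 2 arrays and were not tested.

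**Figure D4:**
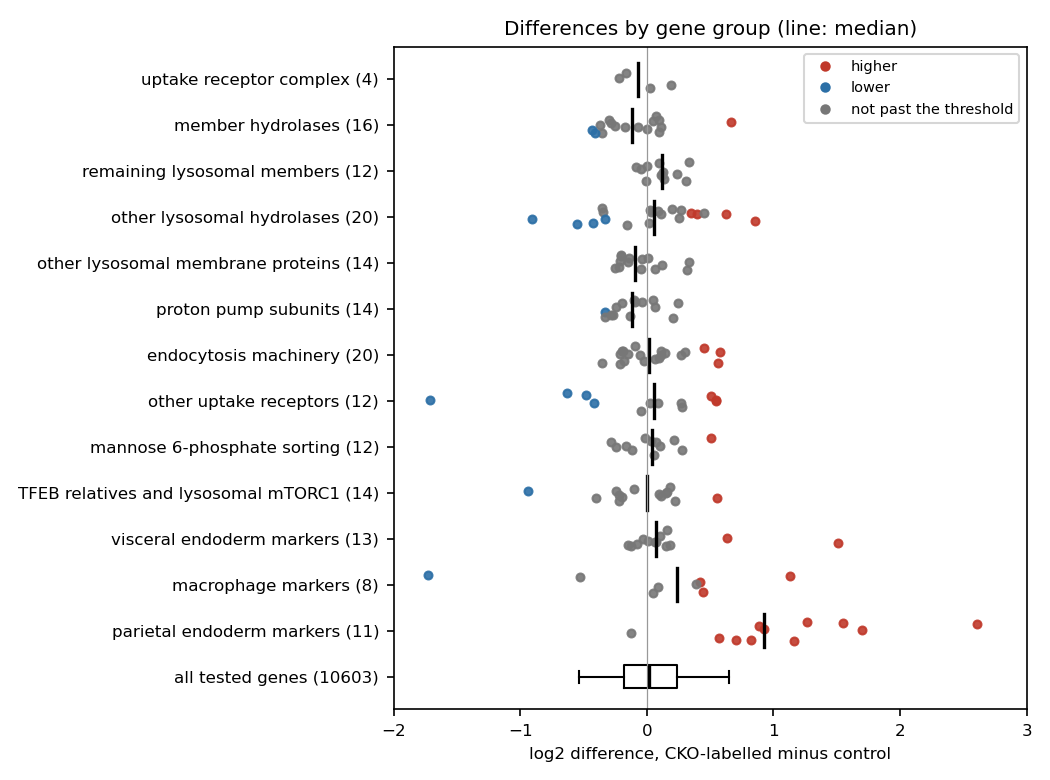
Log2 difference, CKO-labelled minus control (x axis), of each tested gene by group (y axis, number of genes in brackets), with red for higher, blue for lower and grey for not past the threshold; black lines are medians and the box shows the quartiles of all tested genes with whiskers at the 5th and 95th percentiles. The receptor complex, hydrolase and remaining lysosomal groups have medians of -0.07, -0.12 and 0.12, and the parietal endoderm markers one of 0.93.

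Markers of the cells that could hold these transcripts were read beside them. For every count of markers below, the shares over all tested genes are 10.8% lower and 14.4% higher. Visceral endoderm markers, of which 13 of 15 were tested, had 2 higher (Foxa1 and Ihh) and 11 not past, with a median of 0.07. Their summed normalized signal was 88488 and 86145 in CKO-labelled yolk sacs, against 85884 and 85378 in control yolk sacs, and Epcam was not above background on any array. Macrophages, which are rich in lysosomes, had 8 of 16 markers tested, 3 higher and 1 lower. One of the higher, Lyz2, was above background on 2 CKO-labelled and 0 control arrays. The markers had summed signals of 1451 and 1534 in CKO-labelled yolk sacs, against 1682 and 1783 in control yolk sacs. Without Fcgr3, left out after its values were seen, the sums were 1244 and 1364 in CKO-labelled yolk sacs, against 1080 and 1141 in control yolk sacs, so the lower sum rests on that gene. Csf1r rose by 1.13 ± 0.14 and Fcgr3 fell by 1.73 ± 0.12, while Ptprc, C1qa, Aif1, Cd14, Itgam and Timd4 were not above background on any array.

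Parietal endoderm markers, whose cells make a thick basement membrane, were higher in 10 of 11 cases, with summed signals of 32192 and 32931 in CKO-labelled yolk sacs, against 18787 and 18643 in control yolk sacs. One of the 10, Fst, was above background on 2 CKO-labelled and 0 control arrays. Lama1 rose by 1.55 ± 0.11 and Plat by 1.70 ± 0.09. All 4 tested of 8 trophoblast giant cell markers were higher, with summed signals of 1907 and 2141 in CKO-labelled yolk sacs, against 312 and 365 in control yolk sacs. Of these, Prl2c2, Prl2c3 and Prl2c4 are members of the same gene family and not separate readings, and Hand1 rose by 0.49 ± 0.12. Prl7d1 and Ctsq were not above background on any array, and Prl3d1 and Prl3b1 had no probe. Erythroid markers were lower in 6 of 9 cases, at 75967 and 76228 in CKO-labelled yolk sacs, against 84282 and 84231 in control yolk sacs. The 6 ranged from -0.51 for Alas2 to -1.71 for Tfrc. The 3 not past were the globin genes Hbb-bh1, Hbb-y and Hba-x, at -0.02, 0.02 and -0.05. They are the brightest of the list and weigh most on its sums. Mesothelium and mesenchyme markers were higher in 5 of 8 cases, at 24247 and 24093 in CKO-labelled yolk sacs, against 20215 and 19383 in control yolk sacs. Endothelial markers were lower in 3 and higher in 1 of 9 cases, and decidua markers higher in 3 and lower in 2 of 5, with 1 of the higher, Prl8a2, above background on 2 CKO-labelled and 0 control arrays. The part of these cell types in the differences of Lipa, Neu1, Ctsl, Lrpap1 and the other genes was not tested.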

How the data were processed

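Probe values of 4 arrays, 2 labelled Flk1Cre;ETV2 CKO and 2 labelled control, were analysed. The deposited non-normalized table holds, per the file headers, a linear intensity and a detection p-value for each array and probe, with no background subtracted as judged from raw minima of 83.9 to 92.7. The authors' value table holds linear intensity values with a median of 201.4 on each array and the probes in the same rank order as the raw signals. Its direction and linear scale were read from that match, what else was done to it stays unknown, and it served as an alternative. The submitters' processing notes list lumi 2.15.1 with no role given.

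Probes were named through the platform annotation (34885 with 1 symbol). Signals were corrected and normalized with neqc of limma 3.58.1 in R 4.3.3 (background from the detection p-values, offset 16, quantile, log2). A probe was kept where its detection p was below 0.05 on 2 or more of the 4 arrays, and the brightest such probe stood for a gene. Group was tested with lmFit and eBayes, 2-sided; p-values were adjusted by Benjamini and Hochberg across 10603 genes and called below 0.05. Intervals are 95% from the same fit with 6.54 degrees of freedom. An exact permutation test of 2 against 2 arrays cannot go below 0.333. The number of arrays limits the precision. The offset pulls differences of dim genes towards 0. Summed signals are sums of the normalized signal of a list's tested genes on the linear scale.

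The 34 genes and all lists were chosen with earlier results of these data known. All 34 are described, with values per array for the receptor complex and each called gene. From each other list up to 4 called genes of largest difference were to be named, and Fcgrt and the uncalled genes with values per array were added after their values were seen. Alternatives were the background correction, scaling, offset, filter, probe rule, variance trend, the authors' values, leaving out each array, and the replicate number as a block.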

Additional observations from a re-analysis of the deposited data

How the results depend on the processing

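Over 14 alternatives, 21 of the 32 tested genes kept the sign of their difference in each one that measured them, and no called gene changed sign. The signs of Asah1, Ctsd, Cubn, Grn, Gusb, Man2b1, Mcoln1, Ppt1, Psap, Scarb2 and Tfeb, none of them called, turned in at least 1. The count of the 34 genes called lower and higher, 2 and 1 as reported, was 8 and 4 with no background correction, 8 and 5 in the authors' table, 4 and 3 with a detection p under 0.01 on all 4 arrays (fewer genes tested), 10 and 5 with a variance trend, and 7 and 3 with an offset of 50. With median scaling 1 was lower, Ctsl losing its call (-0.31), and over all genes 649 were lower. Leaving out 1 array gave 0 lower throughout and 0 to 1 higher, and over all genes 545 to 671 lower and 751 to 1013 higher, where 1144 and 1527 were reported; fewer arrays remain in those fits. The share of calls that were higher was 57.2% as reported and 70.3% under median scaling. The median of the 34 genes, 0.01, was 0.049 under median scaling and -0.026 to 0.027 with 1 array left out. The hydrolase median, -0.12, was -0.10 both on the authors' values and with no filter on dim probes, -0.18 with the mean of a gene's probes, and -0.18 to -0.10 with 1 array left out. The cause of the changes beyond the number of genes or arrays was not tested. With the replicate number as a block, 3 of the 34 genes were lower, Tpp1 being added, and 1 higher, with 25.7% of all genes called. The numbers come without a stated pairing, and the deviations of same-numbered arrays correlated at 0.066 over genes. Dim genes such as Ctsl, Ctsd and Tfeb lie close to background, and their differences depend on its correction.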
